A study of Homo sapiens with 6 samples.

Results

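The SOX transcription factors were measured in pLUM (pure luminal) and pLB (pure luminobasal) cells, a pair of lines derived from T47Dco, a subline of the estrogen receptor-positive human breast cancer line T47D. The family was taken as 10 genes, SOX2, SOX4, SOX5, SOX6, SOX7, SOX9, SOX10, SOX11, SOX13 and SOX15, of 25940 gene names on the array, and every gene spot carrying one of these names was used, which gave 12 probes. The pLUM line came from a xenograft tumor of an ovariectomized NSG mouse given estradiol (E). Its cells were grown for about 2 months in 1 nM E, sorted as CLD3+ CD49f- (claudin-3 present, integrin alpha-6 absent), grown for about 2 months more and re-sorted 2 times. The pLB line came from a tumor of a mouse given E plus progesterone, was grown for about 2.5 months without estrogen (EWD), sorted as CLD3- CD49f+, grown again for about 2 months and re-sorted 2 times. For the arrays pLUM cells had 1 nM E for 72 h and pLB cells were EWD, and both were stained and sorted for CK5, with the sorted fraction that was hybridized not given in the sources used here. RNA of 3 sorts per line was labeled with Cy3 on 1-color Agilent arrays. Each line stems from 1 tumor, so that the p-values measure the spread between sorts of a line, and line and hormone cannot be told apart because they coincided on all 6 arrays.

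SOX proteins bind DNA through a high-mobility group (HMG) box, which resembles that of the sex-determining factor SRY, and bend it at the minor groove. They are grouped by the likeness of this box. The members here are SOX2 (group B1), SOX4 and SOX11 (C), SOX5, SOX6 and SOX13 (D), SOX9 and SOX10 (E), SOX7 (F) and SOX15 (G). Most act with a partner factor at paired sites, and groups B1, C, E and F carry activation domains whereas the D proteins have none and pair with each other through a coiled coil. In the breast, SOX9 and SOX10 are known from progenitor and basal cells and SOX4 from mesenchymal transition, whereas SOX2 is best known for maintaining pluripotency.

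Probes of 60 bases read these genes, each from 1 spot per array. The bases shown are those of the probes on which the results turn. For all except SOX13 probe a, they are the first 30 bases, 5′ to 3′. SOX13 probe a is shown whole because the 3 probes of this gene gave unequal values. Capitals mark its CAG triplets, counted on the probe's own strand.
SOX2 (chr3:181431877-181431936, plus strand): tggccatgcaggttgacaccgttggtaatt
SOX4 (chr6:21598001-21598060, plus strand): ggcggctggttaatatctcacacagtttaa
SOX6 (chr11:15991795-15991854, minus strand): gctggtggagaacaaaggactgttctttag
SOX9 (chr17:70121841-70121900, plus strand): aaagcaagtttctttgtattcctcacccta
SOX15 (chr17:7493029-7493088, minus strand): actccagactgggaagacctttccattttc
SOX13 a (chr1:204086258-204086317, plus strand): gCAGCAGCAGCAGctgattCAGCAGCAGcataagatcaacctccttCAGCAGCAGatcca
SOX13 b (chr1:204088800-204088859, plus strand): tgttccagcatcagttcaaaagtttcaagt
SOX13 c (chr1:204096551-204096610, plus strand): ttcacaaagtttgttccctaaggaaatcaa
Positions are those of the whole probe in the array files, on hg19. SOX13 probe a holds 10 CAG triplets, and 3 of 34127 probes on the array, or 0.00879%, hold as many or more. The array design lists probes a and c under NM_005686 and probe b under ENST00000367203, and where each lies within its transcript was not analysed here.

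The lines differed in their sort markers, CLDN3 and ITGA6 (CD49f), as the sorting had set, and in lineage markers. The paper lists all of these markers for the lines, so the calls are no independent check. Of 7 luminal markers 6 were called lower in pLB by their representative probes, beside 23.0% of all genes. KRT18 was the exception, and another KRT8 probe was called higher (log2 fold change 1.89). All 6 luminobasal markers were called higher, beside 22.7% of all genes. KRT5, which encodes CK5, for which the cells were also sorted, was well above background on the 3 pLB arrays and on 0 of 3 pLUM arrays. Replicate arrays correlated at r = 0.984 to 0.991 in pLUM and 0.972 to 0.989 in pLB, against 0.780 to 0.806 between lines. The 75th percentile of the signal, to which each array was scaled, ran from 449 to 869 arbitrary units, and 21280 to 22772 probes per array were well above background by the scanner software's own flag. The 3 pLUM arrays and pLB replicate 1 shared a slide, whereas pLB replicates 2 and 3 were on another. The number of arrays limits the precision of every value.

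Of the 10 SOX genes, 4 were higher in pLB, namely SOX2, SOX6, SOX9 and SOX15. SOX4 and SOX13 did not pass by the probe that represents them, and SOX5, SOX7, SOX10 and SOX11 were too dim to be tested. Probes entered the test if 3 or more of the 6 arrays had them well above background, and a gene was represented by its tested probe with the highest mean. A call needed both a change of 2-fold or more and limma's adjusted p below 0.05. In all, 8 of 12 SOX probes were tested, of 6 genes, beside 67.7% of all probes on the array, and probes of SOX6 and SOX15 entered only through pLB, the line in which they were bright. Among all 17668 genes tested, 22.7% were called higher and 23.0% lower in pLB, 45.8% together, so that large differences were common. By probe, 4 of 8 tested SOX probes were called higher and 1 lower, beside 21.9% and 23.7% of all 23103 tested probes, 45.6% together. Only SOX2, SOX4, SOX9 and SOX13 were well above background on all 6 arrays, and of these 4 genes SOX2 and SOX9 were called higher, beside 20.6% higher and 20.5% lower of all 14705 genes so measured. No SOX gene was called lower by its representative probe at the limma threshold. The count was also 0 genes at an unadjusted p under 0.05 and by the methods' t-test after Benjamini-Hochberg adjustment. In RNA of sorted cells, fewer cells that express a gene and less RNA per cell cannot be told apart.

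**Figure D1:**
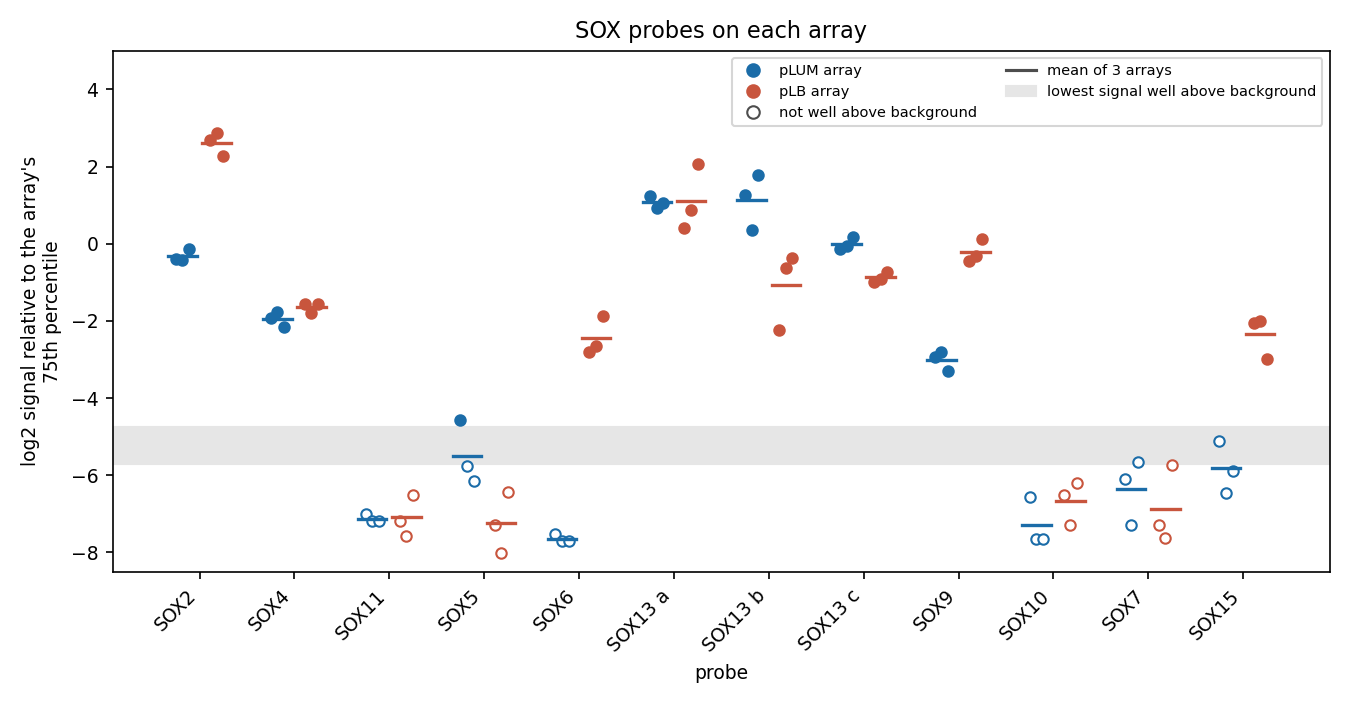
Signal of the 12 SOX probes on each array, as log2 relative to the array's 75th percentile (0 is that percentile), with pLUM arrays in blue, pLB arrays in red, lines for the mean of 3 arrays, open points for spots not well above background and a grey band from -5.70 to -4.75 for the lowest signal well above background on the 6 arrays. SOX2, SOX6, SOX9 and SOX15 lie higher on every pLB array, SOX4 and SOX13 a overlap, and SOX10, SOX11 and SOX7 are open points on all 6 arrays; heights of different probes are not comparable.

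SOX2, the group B1 factor that works with OCT4 (POU5F1) in pluripotent cells, was bright in both lines. On the log2 scale relative to each array's 75th percentile, its level was -0.40, -0.43 and -0.14 on the pLUM arrays and 2.68, 2.87 and 2.26 on the pLB arrays. All pLB arrays lay above the percentile and all pLUM arrays below it. The means were -0.32 ± 0.16 and 2.60 ± 0.31 (SD, n = 3), a 7.61-fold higher level in pLB (limma's log2 fold change 2.93, SE 0.21, 95% interval 2.44 to 3.42, adjusted p = 2.3e-05). Over the 18 other settings and left-out arrays the log2 fold change ranged from 2.75 to 3.18 and the call was kept. A probe of SOX2-OT, the noncoding transcript whose gene overlaps SOX2, from 181458425 to 181458484, was not well above background on any array.

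SOX9, the group E factor that directs cartilage formation and marks progenitors in several epithelia, was measured on all 6 arrays. Its level was -2.92, -2.81 and -3.29 in pLUM and -0.44, -0.31 and 0.11 in pLB. The lines did not overlap, and every pLB array exceeded every pLUM array by more than the spread within either line. The means of -3.01 ± 0.25 and -0.22 ± 0.29 (SD, n = 3) correspond to a 6.93-fold higher level in pLB (limma's log2 fold change 2.79, SE 0.22, 95% interval 2.28 to 3.31, adjusted p = 3.6e-05). With normexp background correction, which compresses dim signals, the log2 fold change was 1.89 and the call was kept.

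SOX6, a group D factor of cartilage, muscle and red cell development, was well above background in pLB only. Its level was -7.52, -7.71 and -7.71 on the pLUM arrays, none of which was well above background, and -2.82, -2.66 and -1.87 on the pLB arrays, all of which were. The pLUM values therefore give only an upper bound. Set against the lowest signal well above background on each pLUM array, SOX6 was at least 7.60-fold higher in pLB (fitted adjusted p = 5.3e-06 from limma). The fit without the bound gave a log2 fold change of 5.19 (standard error 0.27), which depends on signals below that limit. With normexp the log2 fold change was 0.98 (adjusted p = 0.094 from limma), the bound was 1.78-fold, and the call was lost.

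SOX15, the only member of group G in mammals, with known roles in muscle repair and trophoblast, followed the same pattern. Its level was -5.11, -6.45 and -5.90 in pLUM, again not well above background on any array, and -2.05, -2.00 and -2.99 in pLB. All 3 pLB arrays lay above all pLUM arrays, and pLB replicate 3 was the lowest of them. SOX15 was at least 7.90-fold higher in pLB (fitted adjusted p = 0.00025 from limma, fitted log2 fold change 3.47, standard error 0.41). Under normexp the log2 fold change was 0.88 (adjusted p = 0.099 from limma) and this call too was lost, with a bound of 1.79-fold.

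SOX4, a group C factor induced by TGF-beta in mesenchymal transition, did not pass the test. Its level was -1.93, -1.77 and -2.16 in pLUM and -1.56, -1.81 and -1.57 in pLB. The lines overlapped, since pLB replicate 2 lay below pLUM replicate 2. The log2 fold change was 0.31 (standard error 0.18, 95% interval -0.11 to 0.72, adjusted p = 0.17 from limma), an interval that leaves out a 2-fold change in either direction. SOX11, the other group C member and a neural factor, was not well above background on any array, with levels from -7.56 to -6.51 over the 6 arrays.

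**Figure D2:**
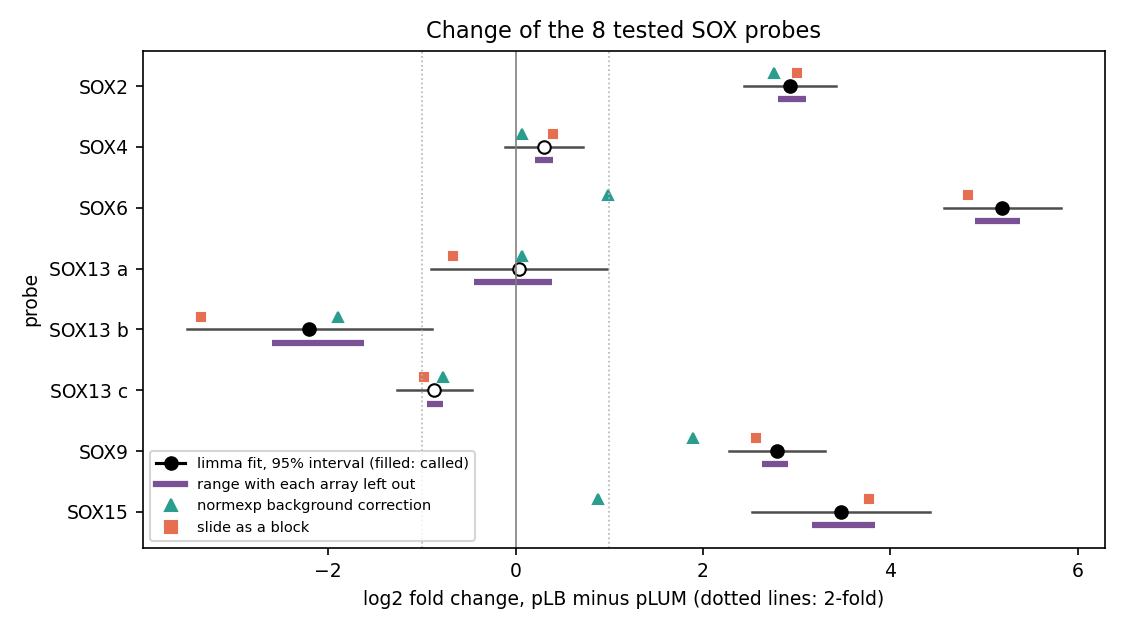
Log2 fold change, pLB minus pLUM, of the 8 tested SOX probes, with the 95% interval from limma (filled where called), the range with each array left out in turn (purple bars), normexp background correction (triangles) and slide as a block (squares); dotted lines mark 2-fold. SOX2 and SOX9 stay above 2-fold under each setting shown, SOX6 and SOX15 fall to 0.98 and 0.88 with normexp, and SOX13 a moves across 0.

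SOX13, a group D factor that was first known as a diabetes autoantigen and acts in T cell development, gave a different value with each of its 3 probes. Probe a, the brightest and hence the representative, read 1.23, 0.93 and 1.05 in pLUM and 0.40, 0.86 and 2.06 in pLB. The pLB arrays of this probe spread widely around the pLUM arrays, with pLB replicate 3 on top and pLB replicate 1 at the bottom. The log2 fold change was 0.04 (standard error 0.40, 95% interval -0.91 to 0.98, adjusted p = 0.94 from limma), and it was -0.44 without pLB replicate 3, -0.03 without pLUM replicate 2 and 0.39 without pLB replicate 1. Among the probes well above background on all 6 arrays that represent a member, its pLB standard deviation of 0.86 was the widest, against 0.31 for SOX2, 0.14 for SOX4 and 0.29 for SOX9.

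SOX13 probe b, which starts 2542 bases after probe a, read 1.27, 0.34 and 1.77 in pLUM and -2.23, -0.63 and -0.36 in pLB. Every pLB array lay below every pLUM array. It was 4.60-fold lower in pLB (limma's log2 fold change -2.20, SE 0.56, 95% interval -3.51 to -0.90, adjusted p = 0.011) and was the only SOX probe called lower. It passed the threshold of the methods' t-test, which takes unadjusted values, and did not pass after Benjamini-Hochberg adjustment of that test (adjusted p = 0.064). Within the slide that held the pLUM arrays, pLB replicate 1 set against the 3 pLUM arrays gave a log2 difference of -3.36, and without that replicate the log2 fold change was -1.62.

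SOX13 probe c, which starts 10293 bases after probe a, read -0.13, -0.05 and 0.17 in pLUM and -0.99, -0.90 and -0.72 in pLB. The arrays of each line lay close together and the lines did not overlap. The level was 1.82-fold lower in pLB (limma's log2 fold change -0.87, SE 0.17, adjusted p = 0.0032), which is under the 2-fold threshold. The change of probe b was 2.24 lower than that of probe a, and the change of probe c was 0.90 lower than that of probe a, on the log2 scale. Each of these differences between probes had p = 0.1 in an exact two-sided permutation test over the 6 arrays, the smallest that 3 arrays against 3 can give. With the mean of the 3 probes in place of probe a, SOX13 was called lower (log2 fold change -1.01, adjusted p = 0.030 from limma). A call for SOX13 thus depends on the probe that is read.

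**Figure D3:**
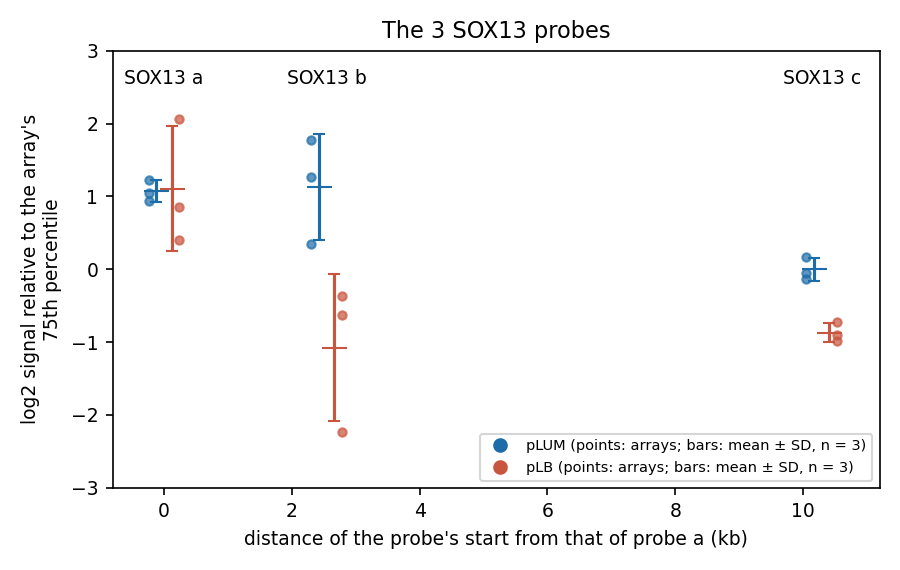
Signal of the 3 SOX13 probes, as log2 relative to the array's 75th percentile, against the distance of each probe's start from that of probe a in kb, with points for arrays and bars for mean ± SD (n = 3). The lines overlap at probe a, with means of 1.07 in pLUM and 1.11 in pLB, whereas all pLB arrays lie below all pLUM arrays at probes b (1.13 and -1.07) and c (0.00 and -0.87).

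The third group D gene, SOX5, which pairs with SOX6 in cartilage, was at the edge of detection. Its level was -4.56, -5.76 and -6.16 in pLUM, of which only replicate 1 was well above background, and -7.30, -8.01 and -6.43 in pLB, of which none was. The lines did not overlap, but with 1 bright array the probe was not tested. Without the filter on dim probes SOX5 was called lower in pLB (log2 fold change -1.75, adjusted p = 0.035 from limma), a value for which 5 of the 6 signals were not well above background. Group D thus held SOX6 higher, SOX13 dependent on the probe and SOX5 untested.

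SOX10, the group E factor of neural crest, glia, melanocytes and breast basal cells, was not well above background on any array. Its levels were -6.56, -7.64 and -7.65 in pLUM and -6.50, -7.29 and -6.19 in pLB, and the lines overlapped. SOX7, a group F factor of endothelium, was likewise not well above background on any array, at -6.10, -7.30 and -5.67 in pLUM and -7.28, -7.63 and -5.73 in pLB. Among all 34127 probes on the array 25.0% were well above background on none, against 3 of the 12 SOX probes, those of SOX7, SOX10 and SOX11. These values are bounds on the signal, and a difference below the limit of detection could not be seen. In all, the lines did not overlap in 6 of the 8 tested SOX probes, beside 68.1% of all tested probes.

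The remaining SOX genes of the array moved in both directions. Of 9 such genes 5 were tested, 1 was called higher in pLB and 2 lower, beside 22.7% and 23.0% of all genes, with a median log2 fold change of -1.97 against 0.04. SOX21, a group B2 factor that opposes group B1 in neural progenitors, was -5.47, -6.61 and -6.02 in pLUM, not well above background on any array, and -2.53, -2.22 and -2.43 in pLB, and was at least 7.91-fold higher (fitted adjusted p = 4.1e-05 from limma), a call lost with normexp. SOX12, the group C relative of SOX4 and SOX11, was -2.78, -2.57 and -1.85 in pLUM and -5.40, -5.36 and -5.00 in pLB, of which 1 array was well above background, a fitted log2 fold change of -2.86 (adjusted p = 9.5e-05 from limma), which rests in part on signals below the limit of detection and was -1.43 with normexp. SOX3, the X-linked relative of SOX2, was -3.43, -2.90 and -3.49 in pLUM and -4.88, -7.90 and -6.99 in pLB, where again 1 array was well above background (log2 fold change -3.31, adjusted p = 0.0046 from limma, -1.24 with normexp and -1.60 with slide as a block). Hence group B1 held SOX2 higher and SOX3 lower in pLB, and group C held SOX12 lower with SOX4 not called. SOX8, of group E with SOX9, had a log2 fold change of -0.93 (adjusted p = 0.014 from limma), under the 2-fold threshold, and SOX30 had -1.97 (adjusted p = 0.079 from limma). SOX1, SOX14, SOX17 and SOX18 were not well above background on any array.

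The factors with which SOX proteins share sites, and the HMG-box proteins of other families, were set beside them. Of 9 partner factors 8 were tested, 5 were called higher and 2 lower in pLB, beside the same 22.7% and 23.0% of all genes, with a median log2 fold change of 1.29 and 0.04 over all genes. SALL4, a pluripotency factor that binds with SOX2, was -5.69, -5.61 and -5.15 in pLUM, where 1 array was well above background, and 1.27, 1.50 and 2.27 in pLB (adjusted p = 2.1e-06 from limma). Its fitted log2 fold change of 7.16 rests in part on signals below that limit and was 4.27 with normexp. EGR2, which acts with SOX10 in myelinating glia, was at least 12.1-fold higher and KLF4 had a log2 fold change of 2.06, against at least 2.41-fold and 1.11 with normexp. PAX6, the partner of SOX2 in lens, was at least 17.2-fold lower in pLB, or at least 4.78-fold with normexp. Another tested PAX6 probe was also called lower, with a bound of at least 1.97-fold. With normexp that probe had a bound of at least 1.78-fold and was not called (log2 fold change -0.90). POU5F1, the best known partner of SOX2, was not called (log2 fold change -1.09, adjusted p = 0.11 from limma), but it was called lower with slide as a block (-1.95, adjusted p = 0.030). NANOG was called lower (log2 fold change -1.28, adjusted p = 0.047 from limma). Its call was lost with normexp (-0.89, adjusted p = 0.058 from limma). It was also lost with replicate number as a block (limma's adjusted p = 0.053) and without the filter on dim probes (limma's adjusted p = 0.078). Among other settings, the count of partners called lower was 3 with slide as a block and 1 by the methods' t-test after Benjamini-Hochberg adjustment. It was 1 without pLUM replicate 1, 2 or 3 or pLB replicate 1 or 2, and 3 without pLB replicate 3. The class III POU factors POU3F1 and POU3F2 were called higher, the latter with a bound of at least 2.05-fold. With normexp POU3F1 had a log2 fold change of 0.80 and POU3F2 of -0.28, and neither was called. PAX3 was not well above background on any array. EGR2 and POU3F2 entered the test only through pLB, and PAX6 only through pLUM, the line in which each was bright.

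Of 11 related HMG-box genes 9 were tested, and 6 rose in pLB and 0 fell at the limma threshold. At an unadjusted p under 0.05, 1 was lower (TOX4), and 0 were lower by the methods' t-test after Benjamini-Hochberg adjustment. The shares over all genes were 22.7% and 23.0%, and the median log2 fold change was 1.24 against 0.04. The 6 were TCF7 (1.77), TCF7L1 (1.93), TCF7L2 (1.61) and LEF1 (1.24), which are the DNA-binding partners of beta-catenin in Wnt signaling, the repressor CIC (1.17) and TOX2, at least 3.78-fold higher, or at least 1.07-fold with normexp. With normexp 2 of them were called higher, TCF7L1 (1.56) and CIC (1.09). TCF7 (0.14), TCF7L2 (0.92), LEF1 (0.85) and TOX2 were not called with normexp. Without normexp, another probe of TCF7 and 2 of 4 probes of TCF7L2 were not called, with log2 fold changes of 0.76, 0.75 and 0.57. SOX proteins are known to bind beta-catenin or TCF/LEF factors and to modify their output, so that 10 genes commonly used as readouts of that pathway were listed too. Of these 7 were tested, and 5 were called higher (DKK1, AXIN2, ZNRF3, MYC and CCND1) and 0 lower. The count lower was also 0 at an unadjusted p under 0.05 and by the methods' t-test after Benjamini-Hochberg adjustment. Beside the same shares over all genes, the tested readouts had a median log2 fold change of 1.99 against 0.04. DKK1 and AXIN2, like TOX2 above, entered the test only through pLB, the line in which they were bright. AXIN2 had a bound of at least 1.75-fold only. With normexp 3 of the readout genes, and 3 of the partner factors, were called higher. AXIN2 (0.07) and CCND1 (0.43) were not called with normexp. RNF43, a further readout, had a log2 fold change of -0.23 and was not called, and LGR5 and NOTUM were not well above background on any array.

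**Figure D4:**
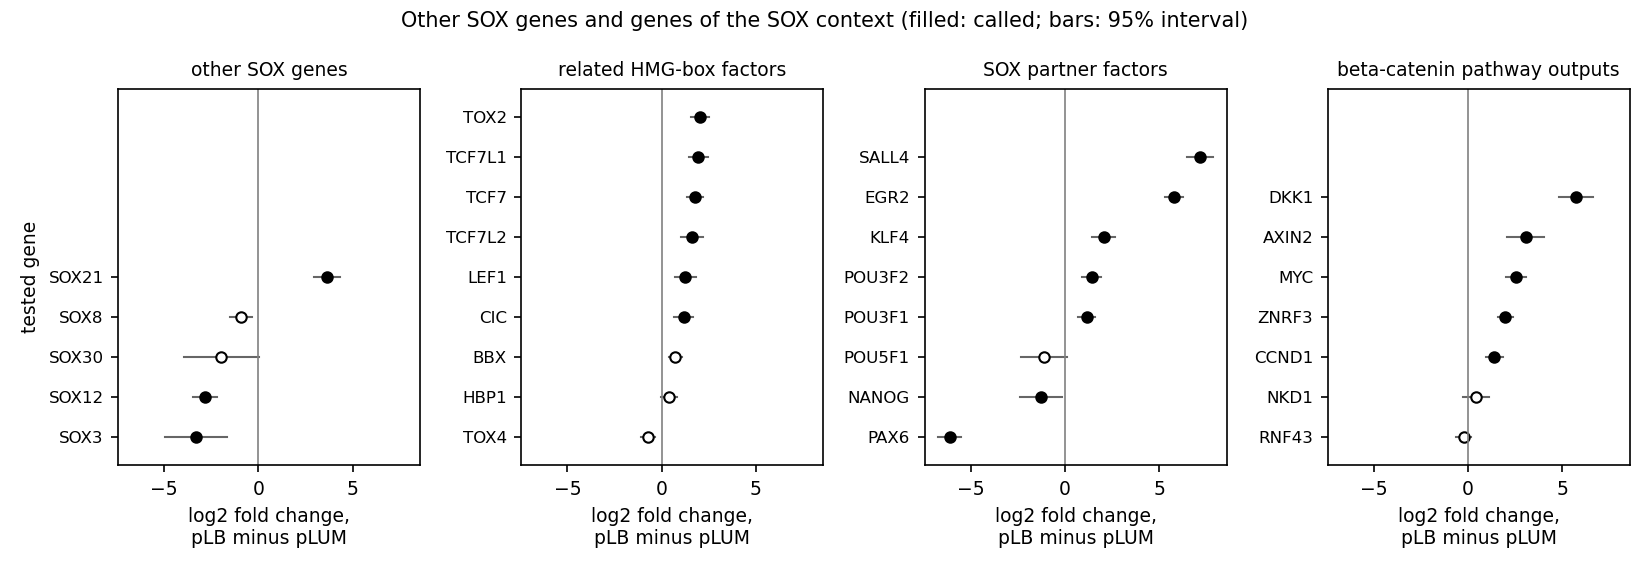
Log2 fold change, pLB minus pLUM, with 95% intervals from limma, of the tested genes among other SOX genes, related HMG-box factors, SOX partner factors and outputs of the beta-catenin pathway, filled where called. Other SOX genes lie on both sides of 0, from -3.31 for SOX3 to 3.64 for SOX21, and the beta-catenin outputs called lie above it; values of genes dim in either line, such as PAX6 and DKK1, rest on signals below the limit of detection.

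Markers of cell types known for SOX7 and SOX10 were detected in part. Of 6 endothelial markers 2 were detected on any array and PECAM1, KDR, TIE1 and TEK on none. CDH5 was well above background on all 3 arrays of each line and was not called (log2 fold change 0.51). VWF was called higher in pLB with a bound of at least 1.80-fold, a call lost with normexp (log2 fold change -0.25) or slide as a block (0.87, adjusted p = 0.084 from limma). The summed level of the list relative to the 75th percentile ran from 0.0824 to 0.123 in pLUM and from 0.103 to 0.222 in pLB. Of 4 melanocyte markers 2 were detected, with MLANA and TYR on no array. PMEL was well above background on all 3 arrays of each line, and DCT on 3 pLUM and 2 pLB arrays. Neither was called (log2 fold changes 0.06 and 0.05). The summed levels of the melanocyte list overlapped, at 0.293 to 0.508 in pLUM and 0.279 to 0.502 in pLB. The part of other cell types in the SOX values was not tested.

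The genes closest to each member were sought by the Euclidean distance between log2 levels over the 6 arrays, each probe centred on its own mean, among 14705 genes well above background on all arrays. Closest to SOX2 were PCDHB2, NCL and EXTL3, at distances of 0.250, 0.306 and 0.325. Closest to SOX9 were CDH26, CSNK1G3 and TOP1P2, at 0.200, 0.224 and 0.295. SOX4 had TAF1B, C5orf58 and RSPRY1 nearest, at 0.123, 0.132 and 0.136, and SOX13 probe a had LOC100288069, SNX29 and PCDHGB7, at 0.270, 0.295 and 0.298. SOX6 and SOX15, dim in pLUM, were left out of this search. With 6 arrays in 2 lines the distance mostly reflects the size of the difference between lines, which was 2.96 for PCDHB2 and 2.93 for SOX2 on the log2 scale.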

How the data were processed

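RNA from 3 sorts each of pLUM and pLB cells was hybridized to 1-color Agilent arrays. The deposited files hold spot intensities made by the authors' array service with Feature Extraction 10.10.1.1, which subtracts background and removes spatial trends, with probe positions on hg19; Partek is named in the submitters' processing notes, without a version. From these intensities, control spots and outlier spots (296 to 387 per array) were removed, log2 of the processed signal was taken, and the array's 75th percentile was subtracted. No spot was saturated. Of 34127 probes, 23103 were kept, each above background by the software's flag on 3 or more of the 6 arrays, and tested with lmFit and eBayes in limma 3.58.1 (R 4.3.3), with Benjamini-Hochberg adjustment over all of them, without covariates. Scripts were tested on simulated data. Calls needed 2-fold and an adjusted p under 0.05. Where all arrays of a line were not well above background, the fold is a bound: the bright line's mean against the mean, over the dim line's arrays, of either the dimmest signal that passed the flag on that array or the probe's own, whichever was higher. The named genes are every SOX probe and the lists of other SOX genes, HMG-box factors, partners, SOX targets, beta-catenin outputs and cell type markers, with values for the genes called with the largest change and those a clause needed. Counts over the SOX10 target list and the Schwann cell markers are not reported here. The members and lists were chosen with earlier results of these data known. All 10 member symbols were matched in RefSeq (GRCh38.p14), which was used for names only. Alternatives were normexp (offset 50), quantile, median and spike-in scaling (6 probes), no filter or all 6 arrays, a signal floor and no fold threshold. Others were the methods' t-test after Benjamini-Hochberg adjustment, slide and replicate number as blocks, the mean of a gene's probes, and each array left out.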

Additional observations from a re-analysis of the deposited data

How the results depend on the processing

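SOX2 and SOX9 were called higher under every setting. With normexp background correction the log2 fold changes of SOX6 and SOX15 fell under the threshold (0.98 and 0.88), 2 SOX genes and 2 SOX probes were called higher, and over all probes 3004 were higher. With probes required to be well above background on all 6 arrays, SOX6 and SOX15 have no value and 2 SOX genes and 2 SOX probes were called higher. Without the filter on dim probes 1 SOX gene, SOX5, and 2 SOX probes were called lower. SOX13 probe a turned negative with slide as a block (-0.67), with the mean of its probes (-1.01, which gives 1 SOX gene lower) and over left-out arrays, from -0.44 to 0.39. SOX13 probe b was not called by the methods' t-test after Benjamini-Hochberg adjustment (-2.20, 0 SOX probes lower), though it passed unadjusted, and SOX13 probe c was called without the fold threshold (-0.87, 2 SOX probes lower). For the other tested probes of the 10 SOX genes, and for their counts, leaving out an array changed no call. The totals over all probes ran from 4994 to 5122 higher and from 5107 to 6159 lower, and slide as a block changed no call of a SOX probe. The cause of these changes was not tested, other than that normexp raises dim signals. Spike-in scaling moved the median of all probes by 0.25 on the log2 scale and made 58.4% of called probes higher (6110 against 4353 lower), against 48.0% (5054 against 5476), and normexp moved it by -0.25 (42.7% higher). No SOX call changed with spike-in scaling.

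The replicate numbers showed no pairing of the samples: deviations of same-numbered arrays correlated at -0.27, -0.10 and -0.22, and no array correlated best with its own number. With 3 arrays per line these correlations cannot tell whether the sorts were done in pairs. With the replicate number as a block, 4986 probes were higher and 5383 lower, and no SOX call changed (SOX2 2.93, adjusted p = 0.00082; SOX13 probe b -2.20, adjusted p = 0.016, both from limma). Dim signals limit SOX5, SOX7, SOX10 and SOX11, which were not tested for that reason.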

Other observations

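Genes known as targets of SOX members in other tissues were read on the same arrays. Of 10 genes of cartilage that SOX9 activates with SOX5 and SOX6, 6 were tested. Of these, 3 were called higher and 2 lower in pLB, beside 22.7% and 23.0% of all genes. The 6 had a median log2 fold change of 0.76, against 0.04 over all genes. COL9A3, a chain of type IX collagen, rose from 0.86, 1.04 and 1.14 to 4.50, 4.50 and 4.55 (log2 fold change 3.50, adjusted p = 2.9e-06 from limma), whereas COL9A2, another chain of it, fell by 1.28. COMP had a log2 fold change of 1.58, against 0.26, not called, with normexp. With normexp 1 of the 10 was called higher. MATN1 was called at an adjusted p of 0.042 from limma with 1 pLUM array well above background, a call lost with normexp or slide as a block. COL11A2 fell by 1.38, and 1 of its 3 probes had a log2 fold change of -0.03 (adjusted p = 0.93 from limma). The probes of ACAN, the aggrecan core protein, gave 0.37, not called, and -1.02, called lower. COL2A1, the defining cartilage collagen, COL11A1 and HAPLN1 were not well above background on any array, while SOX9 itself was 6.93-fold higher in pLB.

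Of the genes that SOX10 activates in glia and melanocytes, DCT and TYR are also in the melanocyte marker list. Only 1 of 3 probes of MBP, myelin basic protein, was tested. That probe had a bound of at least 32.0-fold higher in pLB, or at least 5.58-fold with normexp. Which MBP transcripts it reads was not analysed here. SOX10 itself was not well above background on any array. ERBB3, a neuregulin receptor, was 6.39-fold lower and MIA at least 5.67-fold lower in pLB, or at least 2.48-fold with normexp. The probes of RET differed, at -0.92, not called (-1.20 and called lower with slide as a block), and -4.93, called lower with no pLB array well above background. Of 3 genes known as targets of SOX4 or SOX11, EZH2, the histone methyltransferase of Polycomb, fell by 2.24 on the log2 scale (limma's adjusted p = 2.7e-05), while TUBB3 (-0.40) and TEAD2 (0.36) were not called. Of 6 fibroblast markers 2 were detected, of which COL1A2 was at least 11.5-fold higher in pLB, or at least 2.26-fold with normexp, and COL1A1 was not called (log2 fold change -0.56). Of 4 leukocyte markers 3 were tested, with 0 called by limma and 1 in each direction at an unadjusted p under 0.05, by their representative probes. Another probe of PTPRC was called lower in pLB (log2 fold change -1.20, adjusted p = 0.0045 from limma), a call lost with normexp (-0.80).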
